A study of Mus musculus with 20 samples.

Results

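The clustered protocadherin genes were taken as every row of the deposited table whose symbol is Pcdha, Pcdhb, Pcdhga, Pcdhgb, Pcdhgc or Pcdhac followed by a number. These were 58 of 51810 rows, 14 of the alpha cluster, 22 of the beta cluster and 22 of the gamma cluster. RNA had been measured in 12 libraries of sorted medullary thymic epithelial cells (mTEC), stromal cells of the thymus that show self-antigens to developing T cells. There were 3 libraries each of cHyper mTEChi, WT mTEChi, cHyper mTEClo and WT mTEClo. WT is wild type for Trp53, the gene of the tumour suppressor p53; the labels do not explain the alleles of the cHyper genotype or the promoter that drives any of them. By convention mTEClo and mTEChi are the fractions with low and high surface MHC class II or CD80, and mTEChi hold the cells that express Aire, the regulator that turns on many tissue-restricted genes. All groups came from thymi of mice 4 to 5 weeks old, with EpCAM-positive cells enriched on beads before 75000 mTEC were sorted, and each group used poly(A) RNA.

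Clustered protocadherins are cell surface proteins of the cadherin superfamily that bind the same isoform on a neighbouring cell. In the alpha and gamma clusters each variable exon has its own promoter, encodes the extracellular part, and is spliced to a set of constant exons that all isoforms of the cluster share. Beta genes are made of a variable exon alone and have no constant part. In neurons the variable promoters are chosen in random combinations, which gives each cell a surface identity used in self-avoidance of its branches, while the C-type isoforms (Pcdhac1, Pcdhac2, Pcdhgc3, Pcdhgc4 and Pcdhgc5) are used without this random choice. The promoters are known to be bound by CTCF and cohesin and to be silenced by DNA methylation and by repressors such as Smchd1, Setdb1 and Rest.

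Library totals were 22.02 to 47.9 M counts, and replicate 3 of every group was the shallowest (22.02 to 25.3 M). Replicate 3 also had its own run scheme and was of the other sex, in all 4 groups alike, and the labels do not tell whether libraries of a group came from different mice, so each p-value rests on the spread among these libraries, which may be technical. Levels are in CPM, counts relative to the library total after TMM scaling. Trp53 itself had 135, 129 and 138 CPM in cHyper mTEChi, against 97.97, 99.5 and 107 CPM in WT mTEChi, and 166, 177 and 154 CPM in cHyper mTEClo, against 137, 136 and 138 CPM in WT mTEClo. Aire had 1770, 1885 and 1281 CPM in cHyper mTEChi, against 1918, 1923 and 1918 CPM in WT mTEChi, and 38.6, 51.4 and 43.6 CPM in cHyper mTEClo, against 11.3, 16.2 and 15.4 CPM in WT mTEClo, so every mTEChi library lay above every mTEClo library. The sorting marker Epcam ranged over 414 to 528 CPM in mTEChi and 460 to 623 CPM in mTEClo.

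All 58 genes lie on chromosome 18 of the mouse (build mm10) on the plus strand. The alpha cluster spans 36930184 to 37187661, the beta cluster 37264938 to 37524479 and the gamma cluster 37661793 to 37841873. Each beta row is 1 uninterrupted exon block of 2588 to 8695 bases. Every alpha row contains the same 2860 bases in 3 segments near the end of the cluster, and every gamma row the same 2116 bases in 3 segments. Reads from those constant exons were counted in every row of the cluster. In each library the lowest alpha row held 94.4 to 100% of the median alpha row, and the lowest gamma row held 98.0 to 99.1% of the median gamma row. The alpha rows, and likewise the gamma rows, are therefore near-copies of 1 measurement and not 14 or 22 separate ones. The lowest row of each library is used below as the shared part of its cluster, and the excess of a row over it as the row's own part. The own part counts reads of the variable exon above the lowest row. Without strand, it also counts reads of any row that overlaps it outside the constant exons, on either strand. Pcdhgb1 and Pcdhga4 share 3154 and 3157 bases with other gamma rows, more than the 2116 that every gamma row contains.

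The beta genes have no shared constant exon and are read row by row below, though some of their sequence recurs. Of the 100-base windows in a beta gene's transcripts, a median of 0.2% also occurred in another of the 58 genes, with a highest value of 7.73% for Pcdhb21, which overlaps Pcdhb22 by 455 bases. Of the 50-base windows, a median of 4.27% did so, with 8.75% for Pcdhb9, 8.57% for Pcdhb7 and a highest value of 11.99% for Pcdhb12. From the values, strand was apparently not used in counting. Rows nested in the exon of an expressed gene on the opposite strand had a median read density 1.10 times that of the host (51 rows, quartiles 0.15 and 3.42). Rows nested on the same strand had a median of 1.29 (15 rows, quartiles 0.75 and 2.05). Pcdhb12 therefore cannot be told apart from its antisense neighbour Gm37446, which overlaps 63.5% of it and held 44.4 to 71.9% of its count.

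**Figure D1:**
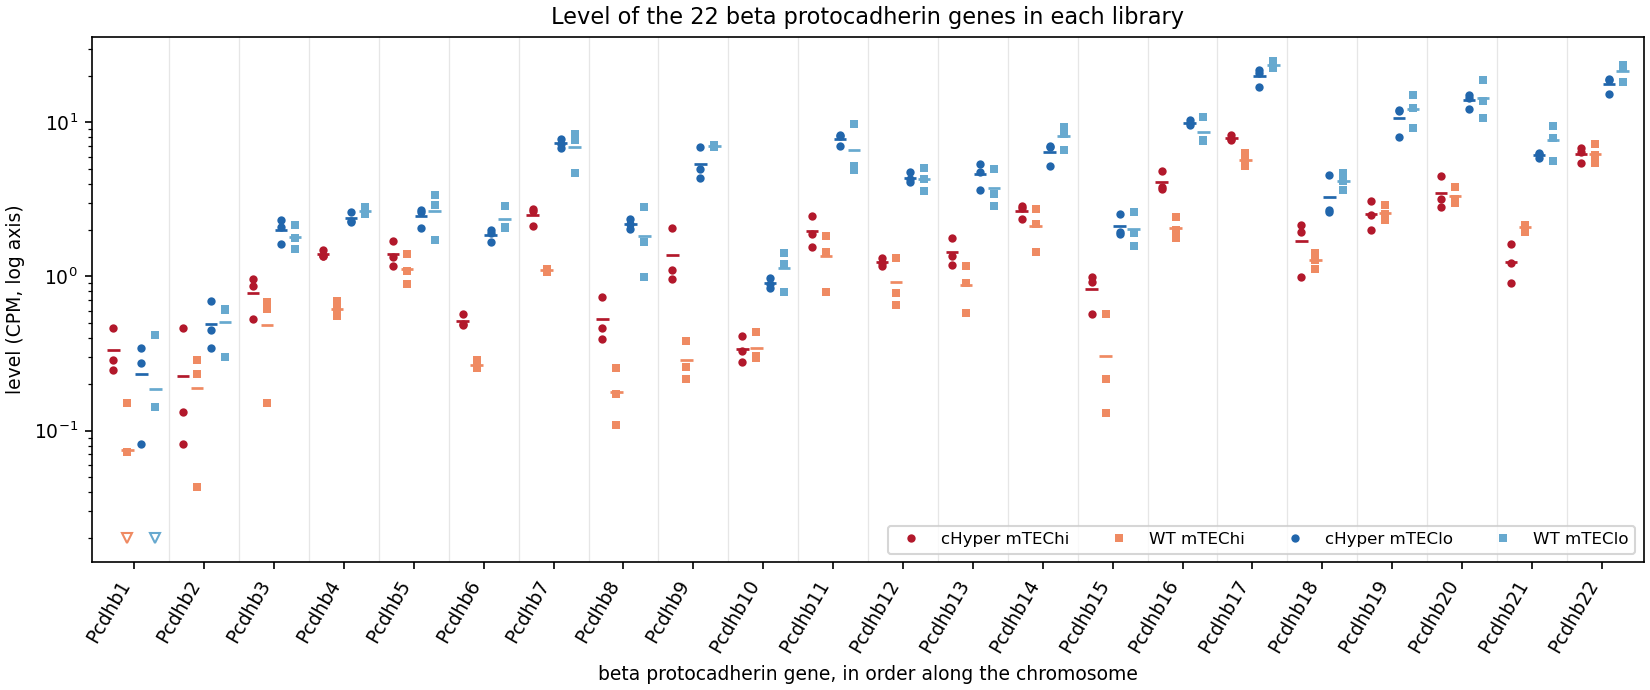
Level of each of the 22 beta genes in CPM on a log axis, with genes in order along the chromosome. Points are libraries (3 per group), short lines are group means and open triangles mark libraries with a count of 0. Pcdhb17 and Pcdhb22 have the 2 highest means in CPM in each group, and the mTEChi points lie below the mTEClo points for most genes.

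All 22 beta genes passed the filter on low counts. Their summed level was 42.6, 47.5 and 44.4 CPM in cHyper mTEChi, 36.8, 31.4 and 32.5 CPM in WT mTEChi, 139, 137 and 120 CPM in cHyper mTEClo and 169, 134 and 131 CPM in WT mTEClo. All 6 mTEChi libraries lay below all 6 mTEClo libraries, and in mTEChi the cHyper libraries lay above the WT libraries. Per length, the leading genes were shared by all groups and the order below them was not. Pcdhb17 was first in every group, with a mean of 3.91 TPM in cHyper mTEChi, 3.02 in WT mTEChi, 8.997 in cHyper mTEClo and 10.8 in WT mTEClo. Pcdhb20 and Pcdhb22 followed in every group, in either order. The 3 rows with the most counts held 40.7% of the beta counts in cHyper mTEChi, 45.1% in WT mTEChi, 39.3% in cHyper mTEClo and 40.9% in WT mTEClo. The lowest gene was Pcdhb1 in WT mTEChi, cHyper mTEClo and WT mTEClo (0.069, 0.189 and 0.154 TPM), and Pcdhb2 in cHyper mTEChi (0.183 TPM). Outside the leading 3, Pcdhb21 ranked 16 of 22 in cHyper mTEChi and 4 in WT mTEChi, and Pcdhb9 ranked 7 in cHyper mTEChi, 18 in WT mTEChi, 6 in cHyper mTEClo and 4 in WT mTEClo. Spearman's rho of mean TPM over the 22 genes was 0.976 between cHyper mTEClo and WT mTEClo, 0.927 between cHyper mTEChi and cHyper mTEClo, 0.887 between cHyper mTEChi and WT mTEClo, 0.809 between WT mTEChi and WT mTEClo, 0.804 between WT mTEChi and cHyper mTEClo and 0.771 between cHyper mTEChi and WT mTEChi. This is a description across genes, which share their libraries.

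The first question was how the genes differ between the cell types. The beta genes were lower in mTEChi. In cHyper, 20 of 22 fell (90.9%), against 25.8% of the 28932 genes tested that were called lower and 64.5% called in either direction. For 20 beta genes in cHyper, all mTEChi libraries lay below all mTEClo libraries, as for 28.4% of all genes. The median log2 fold change of the beta genes was -1.47 in cHyper, where the median of all genes was 0.13. In WT, 20 of 22 again fell, against 29.4% of all genes called lower and 69.5% called in either direction, and 21 did not overlap, as for 31.4% of all genes. The median of the beta genes was -2.07 and that of all genes 0.12. Calls are an adjusted p under 0.05 in edgeR's quasi-likelihood test, adjusted by Benjamini-Hochberg over all genes tested. Pcdhb1 and Pcdhb2 did not pass in either genotype. In bulk samples, fewer cells that use a gene and less RNA per cell cannot be told apart.

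Pcdhb17, the most abundant beta gene per length, had 7.84, 7.68 and 8.31 CPM in cHyper mTEChi, 6.37, 5.22 and 5.63 CPM in WT mTEChi, 20.98, 21.7 and 17.02 CPM in cHyper mTEClo and 25.1, 22.4 and 23.4 CPM in WT mTEClo. The cell types do not overlap in either genotype. It fell 2.51-fold in cHyper (log2 -1.33, SE 0.13, edgeR adjusted p = 4.9e-07) and 4.12-fold in WT (log2 -2.04, SE 0.13, edgeR adjusted p = 5.0e-09). Pcdhb22 had 5.47, 6.8 and 6.46 CPM in cHyper mTEChi, 6.13, 5.43 and 7.25 CPM in WT mTEChi, 18.8, 18.99 and 15.4 CPM in cHyper mTEClo and 23.6, 18.2 and 22.8 CPM in WT mTEClo. Pcdhb20 had 4.5, 3.16 and 2.84 CPM in cHyper mTEChi, 3.82, 2.99 and 3.18 CPM in WT mTEChi, 15.1, 14.3 and 12.2 CPM in cHyper mTEClo and 18.9, 13.8 and 10.7 CPM in WT mTEClo. Both were several times lower in every mTEChi library, with a log2 fold change of -1.51 in cHyper and -1.78 in WT for Pcdhb22, and -1.98 and -2.12 for Pcdhb20. Pcdhb19, their neighbour, had 2.5, 3.09 and 2.02 CPM in cHyper mTEChi, 2.53, 2.34 and 2.89 CPM in WT mTEChi, 11.8, 12.05 and 7.98 CPM in cHyper mTEClo and 15.05, 12.3 and 9.2 CPM in WT mTEClo. It fell by a similar amount in cHyper (log2 -2.06, SE 0.23, edgeR adjusted p = 1.9e-06) and WT (log2 -2.25, SE 0.23, edgeR adjusted p = 6.1e-07). Pcdhb21 had 1.23, 1.61 and 0.905 CPM in cHyper mTEChi, 2.16, 1.95 and 2.13 CPM in WT mTEChi, 6.33, 6.21 and 5.9 CPM in cHyper mTEClo and 9.47, 7.92 and 5.63 CPM in WT mTEClo. It was the beta gene with the lowest log2 fold change in cHyper (log2 -2.27, SE 0.24, edgeR adjusted p = 9.4e-07), and in WT its change was -1.89.

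Pcdhb9 had the lowest fold change in WT. Its level was 0.966, 1.11 and 2.06 CPM in cHyper mTEChi, 0.382, 0.26 and 0.216 CPM in WT mTEChi, 4.98, 4.35 and 6.88 CPM in cHyper mTEClo and 7.13, 6.9 and 6.99 CPM in WT mTEClo. Every mTEChi library lies below every mTEClo library, and the WT mTEChi libraries lie lowest. The fall was 23.6-fold in WT (log2 -4.56, SE 0.33, edgeR adjusted p = 1.5e-08) and 4.03-fold in cHyper (log2 -2.01, SE 0.28, edgeR adjusted p = 1.9e-05). The WT mTEChi level of Pcdhb9 rests on few counts, 18, 12 and 6. Pcdhb8 had 0.461, 0.392 and 0.74 CPM in cHyper mTEChi, 0.255, 0.173 and 0.108 CPM in WT mTEChi, 2.38, 2.02 and 2.2 CPM in cHyper mTEClo and 2.83, 1.67 and 0.985 CPM in WT mTEClo. Pcdhb6 had 0.571, 0.484 and 0.494 CPM in cHyper mTEChi, 0.255, 0.26 and 0.289 CPM in WT mTEChi, 1.92, 1.68 and 1.995 CPM in cHyper mTEClo and 2.88, 2.08 and 2.06 CPM in WT mTEClo. These neighbours of Pcdhb9 came next in WT, with log2 fold changes of -3.30 and -3.13, and -2.09 and -1.84 in cHyper. Pcdhb7 had 2.13, 2.74 and 2.67 CPM in cHyper mTEChi, 1.06, 1.13 and 1.12 CPM in WT mTEChi, 6.83, 7.26 and 7.82 CPM in cHyper mTEClo and 7.72, 4.7 and 8.44 CPM in WT mTEClo. Pcdhb15 had 0.571, 0.922 and 0.987 CPM in cHyper mTEChi, 0.573, 0.13 and 0.216 CPM in WT mTEChi, 2.54, 1.95 and 1.87 CPM in cHyper mTEClo and 1.91, 1.57 and 2.63 CPM in WT mTEClo. Their log2 fold changes were -1.54 and -1.38 in cHyper, and -2.65 and -2.66 in WT, and all 4 passed the test. In WT mTEChi, Pcdhb8 had only 12, 8 and 3 counts and Pcdhb15 only 27, 6 and 6.

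**Figure D2:**
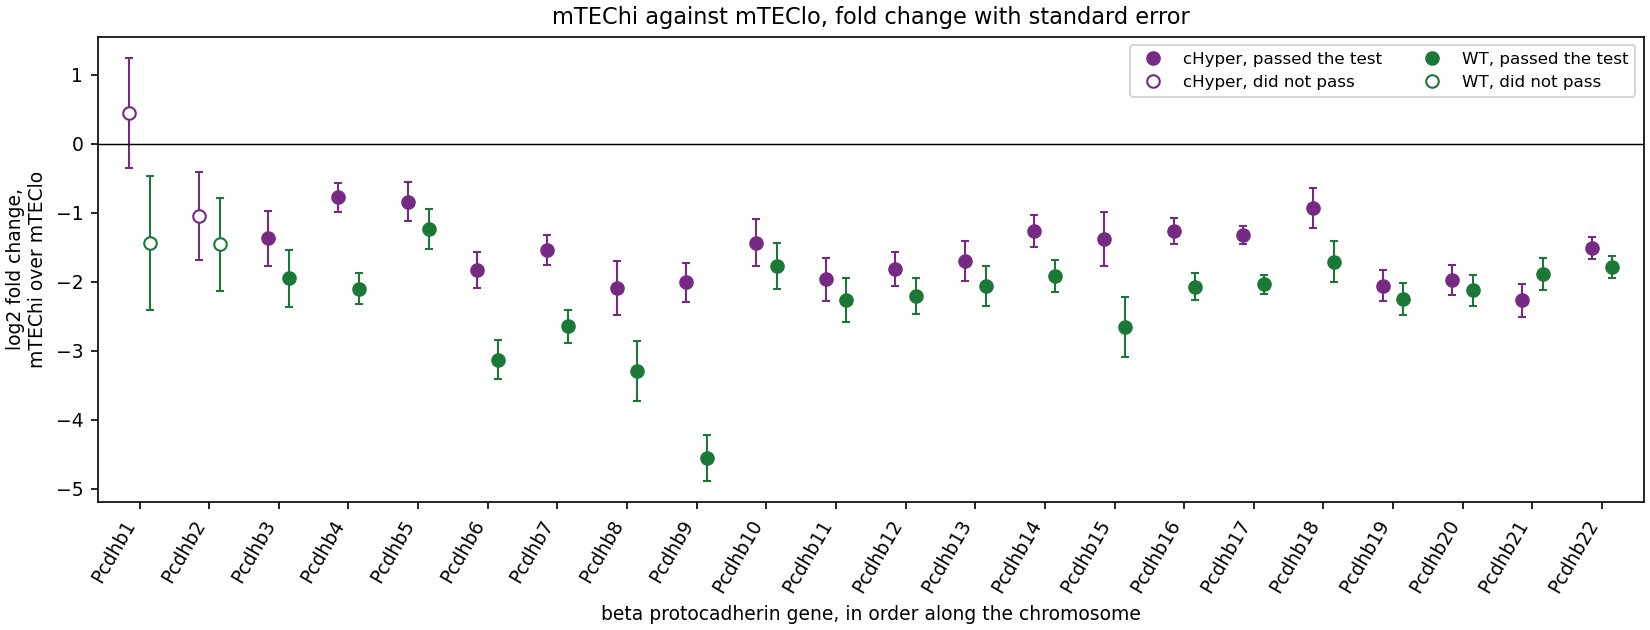
Log2 fold change of mTEChi over mTEClo for each beta gene, with genes in order along the chromosome. Points are edgeR estimates in cHyper and in WT, bars are standard errors, and filled points passed the test. The fold changes reach -4.56 for Pcdhb9 in WT, and 20 of the 22 genes are filled in each genotype.

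Genes with intermediate fold changes fell in both genotypes. Pcdhb11 had 1.89, 2.47 and 1.56 CPM in cHyper mTEChi, 1.83, 1.45 and 0.794 CPM in WT mTEChi, 6.97, 8.21 and 8.23 CPM in cHyper mTEClo and 9.78, 4.93 and 5.21 CPM in WT mTEClo. Pcdhb12 had 1.23, 1.18 and 1.32 CPM in cHyper mTEChi, 1.32, 0.779 and 0.649 CPM in WT mTEChi, 4.27, 4.74 and 4.07 CPM in cHyper mTEClo and 5.05, 4.28 and 3.57 CPM in WT mTEClo, counts that include its antisense neighbour. Pcdhb13 had 1.19, 1.36 and 1.77 CPM in cHyper mTEChi, 1.17, 0.909 and 0.577 CPM in WT mTEChi, 5.35, 4.76 and 3.66 CPM in cHyper mTEClo and 5.01, 3.43 and 2.86 CPM in WT mTEClo. None of these 3 genes overlapped between the cell types of a genotype. Pcdhb14, the longest beta row, had 2.35, 2.86 and 2.8 CPM in cHyper mTEChi, 2.19, 2.73 and 1.44 CPM in WT mTEChi, 6.9, 7.06 and 5.21 CPM in cHyper mTEClo and 8.36, 9.33 and 6.66 CPM in WT mTEClo. Pcdhb16 had 3.8, 4.87 and 3.7 CPM in cHyper mTEChi, 2.42, 1.99 and 1.77 CPM in WT mTEChi, 10.4, 9.89 and 9.61 CPM in cHyper mTEClo and 10.9, 7.71 and 7.55 CPM in WT mTEClo. Pcdhb10 had 0.329, 0.277 and 0.411 CPM in cHyper mTEChi, 0.297, 0.303 and 0.433 CPM in WT mTEChi, 0.845, 0.897 and 0.977 CPM in cHyper mTEClo and 1.2, 1.41 and 0.798 CPM in WT mTEClo. Over Pcdhb10, Pcdhb11, Pcdhb12, Pcdhb13, Pcdhb14 and Pcdhb16 the log2 fold change ran between -1.97 and -1.27 in cHyper and between -2.26 and -1.77 in WT, and each passed in both genotypes.

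The smallest called falls in cHyper were those of Pcdhb4, Pcdhb5 and Pcdhb18. Pcdhb4 had 1.36, 1.36 and 1.48 CPM in cHyper mTEChi, 0.552, 0.693 and 0.613 CPM in WT mTEChi, 2.63, 2.3 and 2.24 CPM in cHyper mTEClo and 2.83, 2.62 and 2.53 CPM in WT mTEClo. Pcdhb5 had 1.16, 1.34 and 1.69 CPM in cHyper mTEChi, 1.4, 0.888 and 1.08 CPM in WT mTEChi, 2.6, 2.69 and 2.08 CPM in cHyper mTEClo and 3.38, 1.74 and 2.91 CPM in WT mTEClo. Pcdhb18 had 2.17, 1.94 and 0.987 CPM in cHyper mTEChi, 1.27, 1.43 and 1.12 CPM in WT mTEChi, 4.55, 2.71 and 2.61 CPM in cHyper mTEClo and 4.72, 4.19 and 3.66 CPM in WT mTEClo. The log2 fold changes were -0.78, -0.84 and -0.93 in cHyper and -2.10, -1.24 and -1.71 in WT. In cHyper the Pcdhb5 call was lost without cHyper mTEClo replicate 2 or without cHyper mTEChi replicate 1 or 2, and with library totals in place of TMM (edgeR adjusted p = 0.054 to 0.073 over these). The Pcdhb18 call was lost without cHyper mTEClo replicate 1 (edgeR adjusted p = 0.069). Pcdhb3 had 0.527, 0.969 and 0.864 CPM in cHyper mTEChi, 0.616, 0.152 and 0.686 CPM in WT mTEChi, 2.08, 2.32 and 1.63 CPM in cHyper mTEClo and 2.15, 1.78 and 1.5 CPM in WT mTEClo, and passed in both genotypes (log2 -1.37 and -1.95).

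Only Pcdhb1 and Pcdhb2, at the end of the cluster that lies next to the alpha genes, were not called between the cell types. Pcdhb1 had 0.285, 0.461 and 0.247 CPM in cHyper mTEChi, 0, 0.152 and 0.0722 CPM in WT mTEChi, 0.274, 0.345 and 0.0814 CPM in cHyper mTEClo and 0.142, 0.417 and 0 CPM in WT mTEClo, with overlap between the cell types of each genotype (log2 0.45, edgeR adjusted p = 0.64 in cHyper, and log2 -1.44, edgeR adjusted p = 0.20 in WT). Pcdhb2 had 0.132, 0.461 and 0.0823 CPM in cHyper mTEChi, 0.233, 0.0433 and 0.289 CPM in WT mTEChi, 0.343, 0.69 and 0.448 CPM in cHyper mTEClo and 0.614, 0.301 and 0.61 CPM in WT mTEClo (log2 -1.05, edgeR adjusted p = 0.16 in cHyper, and log2 -1.46, edgeR adjusted p = 0.064 in WT). Counts per library were low, 0 to 20 for Pcdhb1 and 2 to 30 for Pcdhb2. In WT all mTEChi libraries of Pcdhb2 lay below its mTEClo libraries, and in cHyper they overlapped. The summed beta level had the same direction in both sets of replicates. Within replicates 1 and 2 its log2 ratio of mTEChi to mTEClo was -1.61 in cHyper and -2.15 in WT, and within replicate 3 it was -1.44 and -2.005.

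The second comparison was between the genotypes in mTEChi. Here 4 of 22 beta genes rose in cHyper (18.2%), namely Pcdhb4, Pcdhb7, Pcdhb9 and Pcdhb16, and none fell; over all genes tested 1.56% were called higher, 0.418% lower and 1.98% in either direction. No alpha or gamma row passed this test. The median log2 fold change of the beta genes was 0.49, 18 of 22 were above 0, and the median of all genes was 0.00. These 4 included, 9 beta genes had all 3 cHyper libraries above all 3 WT libraries and 1, Pcdhb21, had all below, where 12.4% and 13.3% of all genes did so.

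Pcdhb9 had 0.966, 1.11 and 2.06 CPM in cHyper mTEChi, against 0.382, 0.26 and 0.216 CPM in WT mTEChi. The groups do not overlap, and cHyper replicate 3 is the highest. The WT mTEChi values rest on 18, 12 and 6 counts. The gene rose 4.49-fold (log2 2.17, SE 0.35, edgeR adjusted p = 0.0035). Pcdhb7 had 2.13, 2.74 and 2.67 CPM in cHyper mTEChi, against 1.06, 1.13 and 1.12 CPM in WT mTEChi, with the replicates of WT close together, and rose 2.27-fold (log2 1.19, SE 0.24, edgeR adjusted p = 0.016). Pcdhb4 had 1.36, 1.36 and 1.48 CPM in cHyper mTEChi, against 0.552, 0.693 and 0.613 CPM in WT mTEChi, again with no overlap, and rose 2.25-fold (log2 1.17, SE 0.23, edgeR adjusted p = 0.013). Pcdhb16 had 3.8, 4.87 and 3.7 CPM in cHyper mTEChi, against 2.42, 1.99 and 1.77 CPM in WT mTEChi and rose 1.99-fold (log2 0.99, SE 0.20, edgeR adjusted p = 0.016). All 4 levels in cHyper mTEChi stayed below every mTEClo library of either genotype. Within replicates 1 and 2 the log2 ratio of cHyper to WT was 1.69 for Pcdhb9, 1.16 for Pcdhb7, 1.13 for Pcdhb4 and 0.97 for Pcdhb16, and within replicate 3 it was 3.25, 1.26, 1.27 and 1.07.

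**Figure D3:**
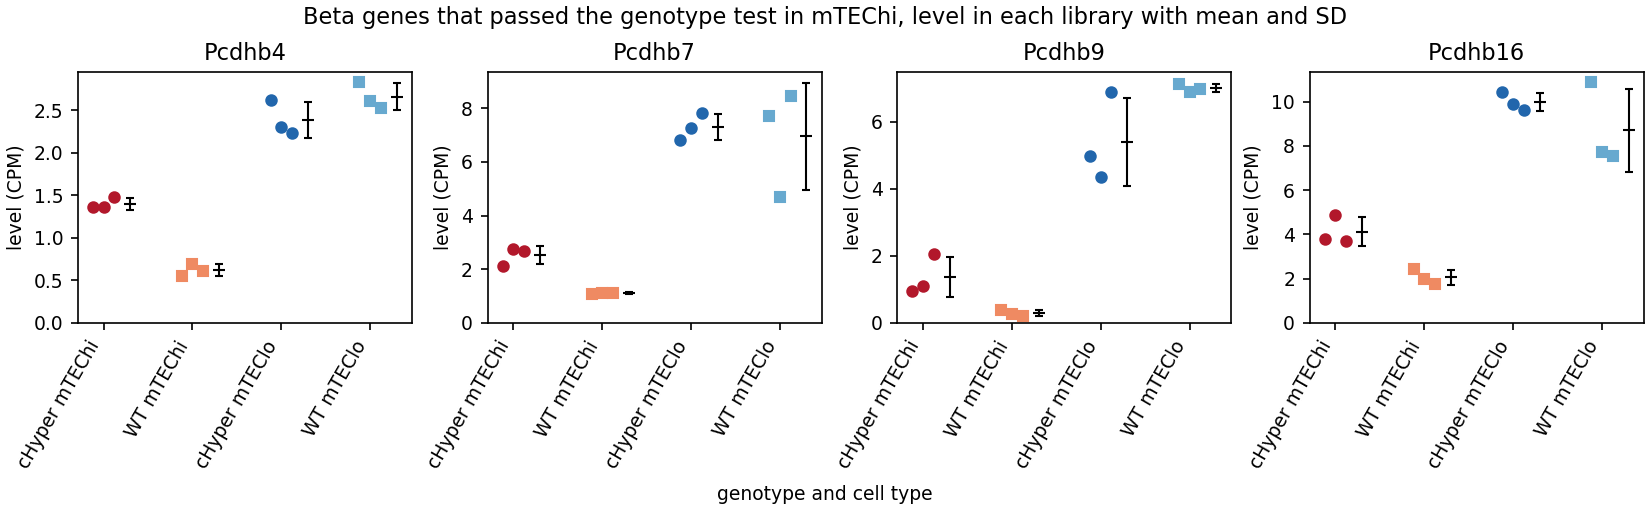
Level in CPM of the 4 beta genes that passed the genotype test in mTEChi, by group, on a linear axis from 0. Points are libraries, and the bar beside them is the mean with its SD (3 libraries). The cHyper mTEChi points lie above the WT mTEChi points and below all mTEClo points.

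The Pcdhb9 call held in every alternative. The others did not: the Pcdhb7 call was lost without cHyper mTEChi replicate 2 or 3 or any 1 WT mTEChi replicate (edgeR adjusted p up to 0.077) and by limma-voom (adjusted p = 0.065), the Pcdhb4 call without replicate 1 or 3 of either mTEChi group (up to 0.084), and the Pcdhb16 call without replicate 2 of either mTEChi group or WT mTEChi replicate 3 (up to 0.092). With replicates 1 and 2 only, the Pcdhb4, Pcdhb7 and Pcdhb16 calls were all lost (edgeR adjusted p = 0.12, 0.12 and 0.11).

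Among 16 mTEC and epithelial markers, 3 rose in cHyper mTEChi and none fell, where 1.56% of all genes were called higher; the median of the 16 was -0.03. The keratin Krt14 had 479, 577 and 574 CPM in cHyper mTEChi, against 243, 258 and 223 CPM in WT mTEChi (log2 1.17, SE 0.13, edgeR adjusted p = 0.00022). The keratin Krt5 had 1078, 1239 and 1691 CPM in cHyper mTEChi, against 693, 781 and 567 CPM in WT mTEChi (log2 0.97, SE 0.18, edgeR adjusted p = 0.010). Ccl21a, a chemokine that draws thymocytes into the medulla, had 517, 668 and 1012 CPM in cHyper mTEChi, against 342, 399 and 328 CPM in WT mTEChi (log2 1.04, SE 0.20, edgeR adjusted p = 0.012). All 3 were, like the beta genes, lower in mTEChi than in mTEClo in both genotypes, by -2.09, -1.97 and -3.09 on the log2 scale in cHyper and by -3.19, -3.12 and -4.31 in WT. Aire lay lower in every cHyper mTEChi library than in every WT mTEChi library and did not pass (log2 -0.22, SE 0.16, edgeR adjusted p = 0.55). The genotype effects of Krt14, Krt5 and Ccl21a also differed between mTEChi and mTEClo (log2 1.10, 1.15 and 1.22, edgeR adjusted p = 0.0057, 0.031 and 0.038), as did that of Aire in the other direction (log2 -1.87, SE 0.23, edgeR adjusted p = 0.00094). Krt14, Krt5 and Ccl21a moved with the 4 beta genes, and their part in the beta result was not tested.

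The other beta genes in mTEChi did not pass. Pcdhb8 (log2 1.44, SE 0.48, edgeR adjusted p = 0.16), Pcdhb15 (log2 1.36, SE 0.45, edgeR adjusted p = 0.17) and Pcdhb6 (log2 0.96, SE 0.31, edgeR adjusted p = 0.15) had estimates at or near those of the called genes. Pcdhb1 had an estimate of 2.13 with an SE of 0.92. Pcdhb17 was at 0.47 with an SE of 0.13 (edgeR adjusted p = 0.095). Pcdhb10, Pcdhb19, Pcdhb20 and Pcdhb22 were between -0.02 and 0.08. Pcdhb21 stood apart in direction, at -0.71 (SE 0.24, edgeR adjusted p = 0.18), and its overlap with Pcdhb22 covers 455 bases. Along the chromosome, the first 11 beta genes had a median of 0.96 and the last 11 a median of 0.41, and Spearman's rho of position and log2 fold change was -0.52 over the 22 genes. The rho of mean level and log2 fold change was -0.33, and neighbouring genes share their libraries, so both are descriptions.

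**Figure D4:**
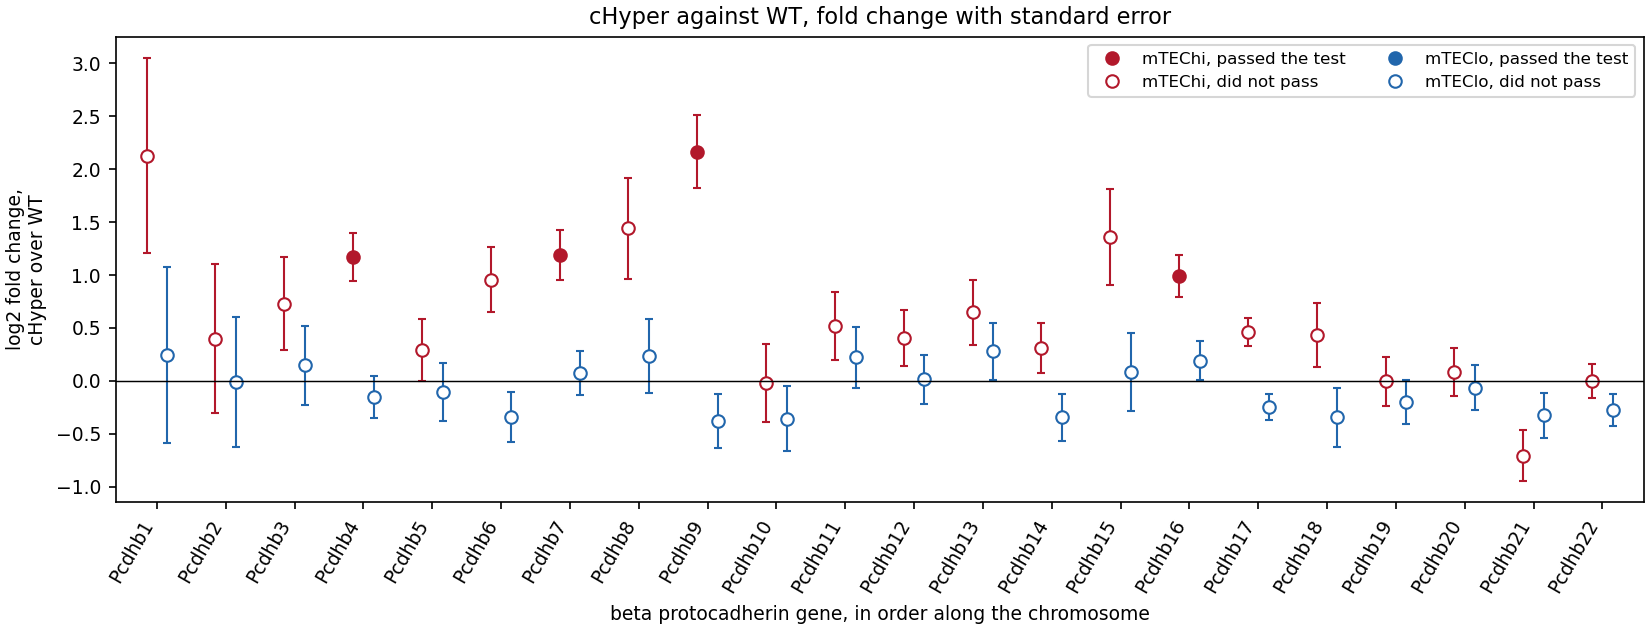
Log2 fold change of cHyper over WT for each beta gene, with genes in order along the chromosome. Points are edgeR estimates in mTEChi and in mTEClo, bars are standard errors, and filled points passed the test. The 4 filled points are in mTEChi (Pcdhb4, Pcdhb7, Pcdhb9 and Pcdhb16); no mTEClo point is filled.

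The third comparison was between the genotypes in mTEClo. None of the 58 genes was called by edgeR, where 9.16% of all genes were called in either direction, 4.53% higher and 4.64% lower, and none had an unadjusted p under 0.05. DESeq2 and limma-voom also called 0. The beta log2 fold changes ran from -0.38 (Pcdhb9) to 0.28 (Pcdhb13), with a median of -0.09. Pcdhb9 had 4.98, 4.35 and 6.88 CPM in cHyper mTEClo, against 7.13, 6.9 and 6.99 CPM in WT mTEClo, and all 3 cHyper libraries lie below the WT ones, a gap that did not pass the test (log2 -0.38, SE 0.26, edgeR adjusted p = 0.40). Of the 22 beta genes, 3 lay all below WT in this way and 19 overlapped, where 13.0% of all genes lay all below. The more abundant Pcdhb17, which gives the narrowest error of the beta genes, was at -0.25 with an SE of 0.13. The gamma rows were at 0.03 to 0.14 and the alpha rows at -0.10 to 0.15, against a median of all genes of 0.00.

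Whether cHyper acted differently in mTEChi and mTEClo was tested as an interaction. It passed for Pcdhb9 (log2 2.55, SE 0.43, edgeR adjusted p = 0.0069) and Pcdhb4 (log2 1.32, SE 0.30, edgeR adjusted p = 0.038), both with the larger cHyper effect in mTEChi. These are 2 of 22 beta genes, where 1.13% of all genes were called in that direction, 0.926% in the other and 2.06% in either. The difference was above 0 for 21 of 22 beta genes, with a median of 0.62 and an exception in Pcdhb21 (-0.38). For Pcdhb7, the estimate was 1.11 (SE 0.31, edgeR adjusted p = 0.094), and for Pcdhb17 0.71 (SE 0.18, edgeR adjusted p = 0.062). The same interaction says that the gap between mTEChi and mTEClo was smaller in cHyper for Pcdhb9 and Pcdhb4. The Pcdhb4 call was lost in 14 of 21 alternatives, among them the removal of any 1 library other than cHyper mTEClo replicate 1.

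The gamma cluster gave the highest counts of the 3. Its shared part was 133, 127 and 141 CPM in cHyper mTEChi, 109, 105 and 126 CPM in WT mTEChi, 193, 188 and 218 CPM in cHyper mTEClo and 194, 172 and 219 CPM in WT mTEClo. It was lower in every mTEChi library than in every mTEClo library (log2 -0.58, SE 0.11, edgeR adjusted p = 0.00027 in cHyper and log2 -0.78, SE 0.11, edgeR adjusted p = 1.5e-05 in WT). All 22 deposited gamma rows were called lower with it, between -0.59 and -0.50 in cHyper and between -0.82 and -0.65 in WT, which is 1 result and not 22. Of all genes, 25.8% in cHyper and 29.4% in WT were called lower. In mTEChi the 3 cHyper libraries lay above the 3 WT libraries, as for 12.4% of all genes. The log2 difference of the shared part was 0.23 (SE 0.11) and did not pass (edgeR unadjusted p = 0.046, adjusted p = 0.34). All 22 rows, near-copies of it, had an unadjusted p under 0.05, which is again 1 result. Within replicates 1 and 2 the log2 ratio of cHyper to WT for the shared part was 0.27, and within replicate 3 it was 0.16.

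Pcdhgc3, a C-type isoform, had the most reads in its own part in every group. It was 69.99, 73.3 and 62.4 CPM in cHyper mTEChi, 55.7, 62.1 and 48.1 CPM in WT mTEChi, 87.95, 90.003 and 85.996 CPM in cHyper mTEClo and 75.5, 69.7 and 60.7 CPM in WT mTEClo. The own part of Pcdhgb6 was 6.53, 5.68 and 5.29 CPM in cHyper mTEChi, 5.53, 4.45 and 6.16 CPM in WT mTEChi, 12.95, 9.73 and 8.18 CPM in cHyper mTEClo and 10.9, 6.97 and 10.7 CPM in WT mTEClo. It came next by reads in cHyper mTEChi, cHyper mTEClo and WT mTEClo, and Pcdhgc4 did in WT mTEChi. Part of the Pcdhgc3 value may belong to BC037039, which overlaps it by 1559 bases on the other strand. The own part of Pcdhgc3 was lower in mTEChi than in mTEClo by a small margin (log2 -0.36, SE 0.11, edgeR adjusted p = 0.0099 in cHyper and log2 -0.31, SE 0.11, edgeR adjusted p = 0.020 in WT). Its genotype estimates were 0.31 in mTEChi (edgeR adjusted p = 0.20) and 0.36 in mTEClo (edgeR adjusted p = 0.055). As a whole row, Pcdhgc3 had the highest mean TPM of the 58 genes, 89.99, 83.2 and 82.6 TPM in cHyper mTEChi, 76.8, 73.2 and 71.6 in WT mTEChi, 110, 105 and 117 in cHyper mTEClo and 109, 92.4 and 103 in WT mTEClo. Pcdhgb6, Pcdhga5, Pcdhgb8 and Pcdhga10 came next by mean TPM (77.6 to 79.3), levels that are set mostly by the shared exons.

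**Figure D5:**
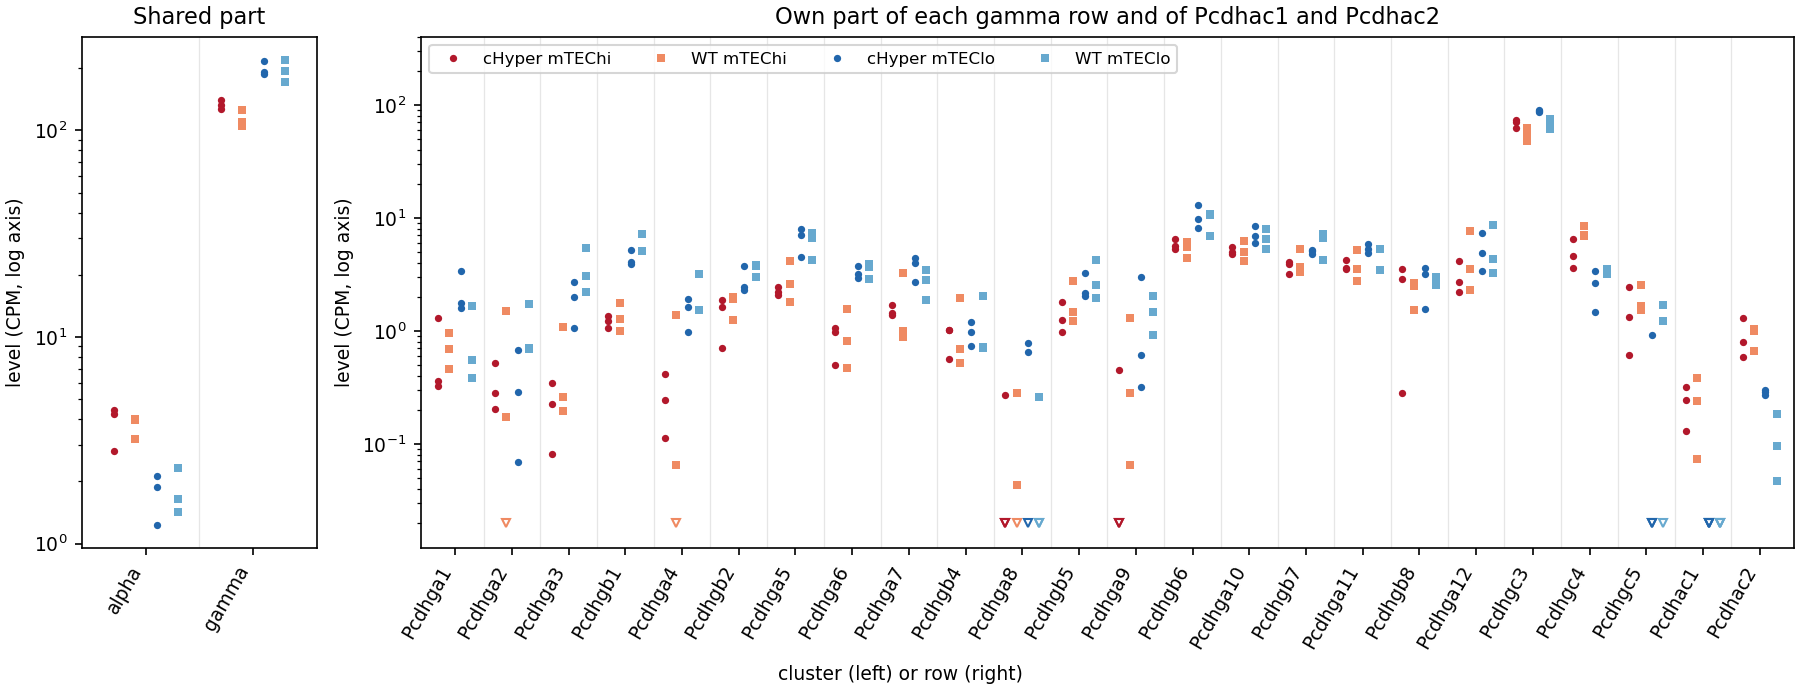
Shared part of the alpha and gamma clusters (left) and own part of each gamma row and of Pcdhac1 and Pcdhac2 (right), in CPM on log axes. Points are libraries, 3 per group, and open triangles mark an own part of 0, which the lowest row has by construction. The gamma shared part is lower in mTEChi, the alpha shared part higher, and the own parts of Pcdhgc4, Pcdhac1 and Pcdhac2 are higher in mTEChi than in mTEClo.

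Of the 22 gamma own parts, 13 fell and 1 rose between the cell types of cHyper, and 9 fell and 1 rose in WT. The lowest row of each library is subtracted from all 22, so these calls are not separate results. A row that is itself the lowest has an own part of 0 by construction. Among the called falls, this touches Pcdhga9 in cHyper mTEChi (0, 0 and 11 counts) and Pcdhga4 in WT mTEChi (0, 3 and 37 counts). For both, the calls are a description. The fits of split rows called 64.8% of all rows in cHyper and 69.5% in WT in either direction, so in total the gamma own parts were called no more often than all rows. In the fit of unsplit rows, 25.8% of all genes in cHyper and 29.4% in WT were called lower. The called falls in both genotypes included Pcdhgb1 with 1.35, 1.23 and 1.06 CPM in cHyper mTEChi, 1.27, 1.004 and 1.78 CPM in WT mTEChi, 3.9, 4.03 and 5.18 CPM in cHyper mTEClo and 7.2, 5.13 and 7.23 CPM in WT mTEClo, a change of -1.83 in cHyper and -2.29 in WT. They also included Pcdhga3 (-3.03 and -2.95), Pcdhga6 (-1.99 and -1.94) and Pcdhga5 (-1.53 and -1.10). Part of the Pcdhgb1 value may be reads of Pcdhga4, whose own part was called lower as well (-2.54 and -2.69). The rise was that of Pcdhgc4, a C-type isoform needed for survival of some neurons in mice. Its own part was 4.59, 6.52 and 3.62 CPM in cHyper mTEChi, 6.86, 8.41 and 7.02 CPM in WT mTEChi, 1.47, 2.66 and 3.37 CPM in cHyper mTEClo and 3.54, 3.39 and 3.18 CPM in WT mTEClo, with all mTEChi libraries above all mTEClo libraries (log2 1.01, SE 0.28, edgeR adjusted p = 0.0052 in cHyper and log2 1.14, SE 0.27, edgeR adjusted p = 0.0017 in WT). In WT mTEChi, replicate 3 stood above replicates 1 and 2 in most gamma A own parts, with a gamma A sum of 15.4, 15.98 and 34.2 CPM in WT mTEChi. edgeR called no gamma own part between the genotypes, where 2 in mTEChi and 3 in mTEClo had an unadjusted p under 0.05.

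The alpha cluster was the lowest of the 3 and moved the other way. Its shared part was 4.24, 4.43 and 2.81 CPM in cHyper mTEChi, 4.02, 3.21 and 3.97 CPM in WT mTEChi, 2.12, 1.88 and 1.23 CPM in cHyper mTEClo and 2.31, 1.42 and 1.64 CPM in WT mTEClo, which is 30 to 195 counts per library. Every mTEChi library lay above every mTEClo library (log2 1.12, SE 0.26, edgeR adjusted p = 0.0018 in cHyper and log2 1.05, SE 0.27, edgeR adjusted p = 0.0027 in WT). All 14 alpha rows were called higher with it, where 38.7% of all genes in cHyper and 40.2% in WT were called higher, and 40.3% and 41.8% lay higher without overlap. The WT call of the Pcdha11 row ENSMUSG00000007440 was lost without WT mTEClo replicate 2 (edgeR adjusted p = 0.053). Another row, ENSMUSG00000102206, has the same symbol, no row is named Pcdha10, and the RefSeq gene with the nearest start to the first is Pcdha10. Between the genotypes the shared part differed by 0.05 in mTEChi and -0.02 in mTEClo on the log2 scale, and no alpha row was called.

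Only 4 of 14 alpha own parts had enough counts to be tested, those of Pcdha9, Pcdha12, Pcdhac1 and Pcdhac2. The C-type parts Pcdhac1 and Pcdhac2 lay higher in mTEChi, and the parts of Pcdha9 and Pcdha12 did not pass. Pcdhac1 had 0.131, 0.318 and 0.244 CPM in cHyper mTEChi, against 0.387, 0.24 and 0.0743 CPM in WT mTEChi, and no count above the shared part in any mTEClo library. That is 26 counts in cHyper mTEChi and 31 in WT mTEChi, at least 8.55-fold higher in cHyper and at least 9.12-fold higher in WT against a floor of 3 counts over the 3 mTEClo libraries. The Pcdhac1 part passed the filter on low counts through mTEChi alone, and in mTEClo its row tied with the lowest row. Its test between the cell types is therefore not used, and the counts are a description. Pcdhac2 had 0.59, 0.795 and 1.3 CPM in cHyper mTEChi, 1.03, 1.004 and 0.668 CPM in WT mTEChi, 0.271, 0.298 and 0.288 CPM in cHyper mTEClo and 0.0472, 0.186 and 0.0964 CPM in WT mTEClo, without overlap between the cell types (log2 1.61, SE 0.44, edgeR adjusted p = 0.0048 in cHyper and log2 2.99, SE 0.50, edgeR adjusted p = 8.8e-05 in WT). Its mTEClo values, all below 0.3 CPM, rest on few counts.

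Among 12 non-clustered protocadherins, which are cell surface proteins encoded by single genes elsewhere in the genome, 7 rose and 2 fell in mTEChi of cHyper and 9 rose and 2 fell in WT. Over all genes tested, 38.7% were called higher and 25.8% lower in cHyper, and 40.2% higher and 29.4% lower in WT. Pcdh10 had 32.4, 29.6 and 23.7 CPM in cHyper mTEChi, 32.6, 34.3 and 36.3 CPM in WT mTEChi, 2.49, 1.91 and 1.02 CPM in cHyper mTEClo and 1.61, 1.9 and 1.92 CPM in WT mTEClo. Pcdh12, known from endothelial cells, had 9.15, 8.33 and 11.2 CPM in cHyper mTEChi, 7.47, 7.84 and 6.93 CPM in WT mTEChi, 0.274, 0.322 and 0.407 CPM in cHyper mTEClo and 0.307, 0.301 and 0.0938 CPM in WT mTEClo. Both rose in mTEChi, and Pcdh18 fell as the beta genes did, with 9.9, 12.1 and 10.4 CPM in cHyper mTEChi, 9.3, 9.55 and 9.74 CPM in WT mTEChi, 42.2, 43.5 and 35.8 CPM in cHyper mTEClo and 40.5, 43.7 and 36.7 CPM in WT mTEClo (log2 -1.91 in cHyper and -2.08 in WT). Pcdh20 was the other fall (-0.81 and -1.20). Between the genotypes in mTEClo, Pcdh8 (1.21), Pcdh19 (0.83) and Pcdh17 (0.61) rose in cHyper, where 4.53% of all genes were called higher, and in mTEChi edgeR called none of the 12 (1 had an unadjusted p under 0.05).

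Of 22 regulators known to act on the clusters, 3 rose and 13 fell in mTEChi of cHyper and 4 rose and 13 fell in WT, where 38.7% and 40.2% of all genes were called higher and 25.8% and 29.4% lower. Rest, a repressor that binds protocadherin promoters, had 47.4, 44.99 and 53.1 CPM in cHyper mTEChi, 38.8, 36.8 and 26.6 CPM in WT mTEChi, 155, 134 and 125 CPM in cHyper mTEClo and 127, 111 and 91.5 CPM in WT mTEClo and fell in both genotypes (log2 -1.51 in cHyper and -1.69 in WT). Ctcf, which binds the promoters and enhancers of the clusters, had 89.4, 85.6 and 85.5 CPM in cHyper mTEChi, 72.5, 80.02 and 60.1 CPM in WT mTEChi, 133, 132 and 105 CPM in cHyper mTEClo and 121, 109 and 98.1 CPM in WT mTEClo (log2 -0.50 and -0.62). The zinc finger protein Wiz changed by -1.15 and -1.25, and the cohesin subunit Stag1 by -1.15 and -1.10. Rad21, another cohesin subunit, rose (0.36 and 0.53), as did the DNA methyltransferases Dnmt3a (0.51 and 0.75) and Dnmt3b (0.48 and 0.66). None of the 22 was called by edgeR between the genotypes in mTEChi or mTEClo, where 3 and 4 had an unadjusted p under 0.05.

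Of 16 genes that process protocadherins or carry their signal, 3 rose and 10 fell in mTEChi of cHyper, and 4 rose and 10 fell in WT, beside the same shares of all genes (25.8% and 29.4% lower). The kinase Ptk2b (2.63 and 2.30), the kinase Prkca (1.63 and 2.12) and the WAVE complex subunit Cyfip2 (2.14 and 3.04) rose in both. The scaffold protein Axin1 (-0.58 and -0.78) and the focal adhesion kinase Ptk2 (-0.69 and -0.71) fell. In mTEClo, Cyfip2 (1.21), Prkca (0.76) and the receptor kinase Ret (0.49) rose in cHyper, where 4.53% of all genes were called higher, and in mTEChi edgeR called none of the 16 (3 had an unadjusted p under 0.05). Ret also passed the test of the difference (-0.98).

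Markers of other cell types moved between the groups as well. Summed over 10 of 10 fibroblast and pericyte markers, the level was 1220 to 1703 CPM in cHyper mTEChi, 844 to 968.5 CPM in WT mTEChi, 1866 to 2748 CPM in cHyper mTEClo and 2053 to 2317 CPM in WT mTEClo. The sum rests on a few genes: 7 of the 10 lay below 0 in cHyper against WT mTEChi, with a median log2 fold change of -0.21, and between the cell types 4 rose and 4 fell in cHyper and 3 rose and 4 fell in WT. Over the 10 the median log2 fold change of mTEChi over mTEClo was -0.52 in cHyper (6 below 0) and -0.52 in WT (7 below 0). This is the direction of the beta genes. Col1a1, a fibroblast collagen, had the highest value of the 10 and went the other way (log2 5.38, SE 0.29, edgeR adjusted p = 1.2e-09 in cHyper and log2 5.11, SE 0.28, edgeR adjusted p = 9.2e-10 in WT). Most of the sum was Rgs5, a pericyte marker, with 993, 1209 and 1455 CPM in cHyper mTEChi, 742, 712 and 540 CPM in WT mTEChi, 1172, 1798 and 1929 CPM in cHyper mTEClo and 1111, 1314 and 1295 CPM in WT mTEClo. Rgs5 was the 1 called in cHyper mTEChi (log2 0.87, SE 0.19, edgeR adjusted p = 0.028), while the fibroblast marker Dcn had 22.5, 26.5 and 27.8 CPM in cHyper mTEChi, against 27.7, 30.7 and 29.1 CPM in WT mTEChi and did not pass. None of the 10 was at 0 in any group, and the part of these cells in the beta results was not tested. The summed level of 12 myeloid and dendritic, 8 endothelial, 10 Schwann cell and melanocyte and 10 neuron markers was higher in mTEChi than in mTEClo, opposite to the beta genes. For the myeloid and dendritic markers it was 519 to 579 CPM in cHyper mTEChi, 533 to 714.5 CPM in WT mTEChi, 29.1 to 46.8 CPM in cHyper mTEClo and 30.3 to 34.7 CPM in WT mTEClo. For the neuron markers it was 222 to 247 CPM in cHyper mTEChi, 222 to 250 CPM in WT mTEChi, 171 to 218 CPM in cHyper mTEClo and 148 to 187 CPM in WT mTEClo. Neuroendocrine markers (12 genes) had a lower sum in mTEChi, the direction of the beta genes. In cHyper that sum was 715 to 801 CPM in mTEChi and 803.5 to 1161 CPM in mTEClo. In WT it was 707 to 779 CPM in mTEChi and 829 to 993 CPM in mTEClo. Gene by gene, 9 of the 12 rose and 2 fell in each genotype, where 38.7% and 40.2% of all genes were called higher. Their part in the beta results was not tested.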

How the data were processed

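The authors deposited 1 table with a count per gene and library (12 columns), a TPM value for each, and the gene lengths in kilobases on which the deposited TPM rest. The submitters' processing notes name the mm10 build and the tools TopHat2 2.1.1, SAMtools 1.9, featureCounts and Subread 2.0.1; the step each served, the strand setting, the annotation and the filters are not stated there. Per the file headers, the authors merged the repeat runs that replicates 1 and 2 have. In the deposited counts, small values were more often even (53.6 to 57.4% of counts from 1 to 10), so mates may have been counted separately.

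The test was edgeR's (4.0.16, under R 4.3.3) on the counts, by quasi-likelihood with TMM and filterByExpr by group, with 12 libraries in 1 fit, 8 residual degrees of freedom and Benjamini-Hochberg adjustment over 28932 genes. Genes with an adjusted p under 0.05 were called, and the procedure was tested on simulated data. DESeq2 1.42.0 and limma 3.58.1 (voom) were alternatives. TPM served only to order the genes. Exon positions are those of the deposited table. RefSeq names are from GRCm38.p6, and windows of 50 and 100 bases were taken from GENCODE vM21 transcripts of the same build. The members and gene lists were chosen with earlier results of these data known. Library values are given for beta genes and for the parts of alpha and gamma rows, and list genes are named when called, up to 6 per comparison; Ctcf, Rad21, Dnmt3b and Pcdh20 were named after their values were seen.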

Additional observations from a re-analysis of the deposited data

Results flagged for a closer look

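The effect of the cHyper genotype differed between the cell types for Pcdhb9 and Pcdhb4 by the test of the interaction. For Pcdhb9 the log2 effect of cHyper was 2.17 in mTEChi and -0.38 in mTEClo, a difference of 2.55 (edgeR adjusted p = 0.0069), with all 3 cHyper libraries above WT in mTEChi and all 3 below WT in mTEClo. The mTEClo effect alone was not called. Of all genes, 12.4% lay all above WT in mTEChi and 13.0% all below WT in mTEClo. For Pcdhb4 the effects were 1.17 and -0.16, a difference of 1.32 (edgeR adjusted p = 0.038), with all 3 cHyper libraries above WT in mTEChi and overlapping groups in mTEClo. The Pcdhb9 difference was called in all 21 alternatives, and the Pcdhb4 difference in 7 of them.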

How the results depend on the processing

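Of 118 calls of single clustered protocadherin rows, 111 were kept under every alternative, 7 were lost under at least 1 and none changed sign. Most of the 118 are alpha and gamma rows between the cell types, near-copies of 1 measurement per cluster, so they are not separate results. Apart from a Pcdha11 row, the lost calls were of beta genes. They include the genotype calls of Pcdhb4, Pcdhb7 and Pcdhb16 in mTEChi and the Pcdhb4 interaction. Genotype calls in mTEChi numbered 4 among all 58 genes and among the beta genes alone, 1 with replicates 1 and 2 only, and 1 to 4 with 1 library left out. With WT mTEChi replicate 3 left out 1 was called, and with WT mTEChi replicate 2, cHyper mTEChi replicate 2 or cHyper mTEChi replicate 3 left out there were 2. The difference between the cell types numbered 2, which became 4 with DESeq2, 1 with limma-voom, 1 without the filter, 1 with replicates 1 and 2 only, and 1 to 2 with 1 library left out. The fit of the compared groups alone does not apply to it. With 1 library left out, calls between the cell types were 55 to 56 of 58 in cHyper and 56 to 57 in WT, and 0 between the genotypes in mTEClo.

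Samples with the same replicate number correlated by 0.061 to 0.233 in their deviations (14 of 18 pairs over 0.1), and all 12 libraries correlated best with their own number, which is a hint from the data and not the design. With a replicate block, 24 of the 58 genes were called between the genotypes in mTEChi, 4 beta genes and 20 gamma rows that share their exons. Alpha and gamma rows were also split into shared and own parts, a choice made after the data were seen, like that of halved counts. With this split, 38 parts and beta genes were called between the cell types of cHyper and 34 in WT. Both counts include the Pcdhac1 part, whose test is not used. Library totals in place of TMM raised every log2 ratio of mTEChi to mTEClo by 0.16 in cHyper and 0.22 in WT, and no direction changed. Causes of these changes were not tested. Pcdhb1, Pcdhb2 and most alpha own parts have too few counts to show a moderate difference at this depth.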
